A study of Mus musculus with 6 samples.

Results

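The genes described are 9 of the 41388 genes in the deposited files, matched by symbol: the receptor chains Ifnar1 and Ifnar2, the kinase Jak1, the transcription factor Stat2, and the interferon regulatory factors Irf1, Irf2, Irf3, Irf7 and Irf9. All 9 had a count above 0 in every library and all 9 passed the filter on low counts, which left 12339 genes tested. They were measured by poly(A) RNA-seq in KP2 cells, a pancreatic cancer line from a C57BL/6J KPC mouse (a genetically engineered model of pancreatic cancer), held at fewer than 10 passages after the line was made and grown in DMEM with 10% serum. The 3 groups were the IRAK4 knockout with rescue (rescue), the IRAK4 knockout (KO) and wild type, with 2 libraries each. The KO was made by infection with plentiCRISPR vectors that carried guides against IRAK4, a kinase that acts below Toll-like receptors and the interleukin-1 receptor. The labels do not describe the rescue construct, and they do not say whether the wild-type cells carried a vector or whether the KO is 1 clone. Nor do they say whether the 2 libraries of a group were grown as separate cultures, and the p-values therefore speak of the variation among 6 libraries that may be technical repeats.

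As background, type I interferons bind a receptor made of IFNAR1 and IFNAR2, which carry the kinases TYK2 and JAK1. The kinases phosphorylate STAT2, which takes part with IRF9 in the complex ISGF3, and this complex binds interferon-stimulated response elements in the promoters of its target genes. IRF3 and IRF7 act upstream, since kinases downstream of nucleic acid sensors and Toll-like receptors phosphorylate them and they then switch on the interferon genes. IRF1 is an activator that interferon gamma induces, and IRF2 binds the same DNA elements and was first described as its antagonist. Several of these genes, Irf7 above all, are themselves targets of ISGF3 in many cell types.

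Totals ranged from 7605328 to 11505983 counts per library, and the biological coefficient of variation was 10.5% in rescue, 6.08% in KO and 5.08% in wild type. Levels are given as normalised CPM, in which the counts are scaled to the library size after TMM adjustment. Irak4, the targeted gene, had 492.2 and 211.2 normalised CPM in rescue, 20.4 and 21.8 in KO, and 37.9 and 37.6 in wild type. Its log2 fold change was -0.84 in KO against wild type (SE 0.34, edgeR quasi-likelihood adjusted p = 0.057), which did not pass the threshold, and 4.06 in rescue against KO (adjusted p = 2.3e-04). The keratins Krt8, Krt18 and Krt19 were all at 1093 normalised CPM or more in every library. Krt7, another keratin of the epithelial list, averaged only 0.0666, 0.0418 and 2.06 normalised CPM in rescue, KO and wild type. The epithelial list of 8 genes summed to 4727 and 5597 in rescue, 3845 and 3942 in KO, and 6990 and 6677 in wild type, without overlap between groups. Cdh1, the epithelial cadherin, averaged 119.1, 204.8 and 378.0 normalised CPM in rescue, KO and wild type. Epcam, another defining epithelial marker, had 0 counts in rescue and KO and 1 count in the 2 wild-type libraries together. The plasmacytoid dendritic cell markers, which mark a cell type known for high Irf7, summed to at most 0.418 normalised CPM in any library, with Siglech and Flt3 at 0. The T and NK cell and B cell lists summed to at most 1.19 and 0.380. The fibroblast list of 8 genes summed to 26.3 and 28.4 in rescue, 22.9 and 14.8 in KO, and 13.8 and 12.7 in wild type, an order of groups that Irf7, Stat2 and Irf9 also show. Most of that sum was Col1a1 and Col3a1, with Dcn, Lum and Thy1 at 0. The order held for the sum, and neither Col1a1 nor Col3a1 showed it alone. Col1a1 averaged 17.99, 9.659 and 12.18 normalised CPM in rescue, KO and wild type, with the lowest mean in KO. Col3a1 averaged 7.56, 7.63 and 0.395 normalised CPM in rescue, KO and wild type, about level in rescue and KO. Of the 10 myeloid markers, Cd14 and Cd68 made up nearly all of a sum of 43.6 to 82.6, with Adgre1 and Lyz2 at 0. The endothelial list summed to 38.0 and 14.9 in rescue, 16.0 and 30.7 in KO, and 4.63 and 5.47 in wild type. Cdh5 made up nearly all of it in rescue and KO and 2.97 and 3.62 in wild type, where Kdr added 1.54 and 1.66; Kdr averaged 0.0666 and 0.0991 in rescue and KO, and Pecam1 was at or near 0 in all groups. The part of the epithelial, fibroblast and endothelial marker differences in the results below was not tested.

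The promoters of 4 of the 9 genes are shown because their owners moved most, or because they hold the most motif matches. RefSeq windows on GRCm38.p6 run 250 bases before to 50 bases after the annotated start, and 11 windows were available for the 9 genes, with 2 each for Irf1 and Irf9. The 3 motifs were searched on both strands: GAAA and GAAA with any 2 bases (NN) between them, the core of the interferon-stimulated response element that ISGF3 and the IRF factors bind; TTCNNNGAA, the gamma-activated site of STAT dimers; and the kappaB consensus of NF-kB. Capitals mark the matches and all other bases are in lower case, written 5′ to 3′ along the strand of the gene. The Stat2 window is chr10:128270248-128270547 on the plus strand, the Irf2 window chr8:46739495-46739794 on the plus strand, the first Irf1 window chr11:53769764-53770063 on the plus strand and the Irf7 window chr7:141266375-141266674 on the minus strand.
Stat2: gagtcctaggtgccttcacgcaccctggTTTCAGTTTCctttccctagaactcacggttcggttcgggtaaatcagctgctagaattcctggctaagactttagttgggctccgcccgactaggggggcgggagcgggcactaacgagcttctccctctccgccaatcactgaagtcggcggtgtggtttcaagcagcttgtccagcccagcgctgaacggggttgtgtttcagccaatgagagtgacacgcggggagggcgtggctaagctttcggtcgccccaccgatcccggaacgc
Irf2: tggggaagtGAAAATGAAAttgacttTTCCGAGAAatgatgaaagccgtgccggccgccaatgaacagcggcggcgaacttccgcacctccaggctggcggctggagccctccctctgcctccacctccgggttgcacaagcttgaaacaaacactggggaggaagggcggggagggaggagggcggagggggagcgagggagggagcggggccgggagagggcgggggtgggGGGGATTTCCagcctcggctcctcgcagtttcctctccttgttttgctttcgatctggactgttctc
Irf1: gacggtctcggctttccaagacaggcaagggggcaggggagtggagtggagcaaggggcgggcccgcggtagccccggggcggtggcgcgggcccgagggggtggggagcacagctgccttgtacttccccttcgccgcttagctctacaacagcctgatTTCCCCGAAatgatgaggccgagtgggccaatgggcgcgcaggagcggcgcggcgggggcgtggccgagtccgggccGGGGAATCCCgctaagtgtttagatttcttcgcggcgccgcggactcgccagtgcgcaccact
Irf7: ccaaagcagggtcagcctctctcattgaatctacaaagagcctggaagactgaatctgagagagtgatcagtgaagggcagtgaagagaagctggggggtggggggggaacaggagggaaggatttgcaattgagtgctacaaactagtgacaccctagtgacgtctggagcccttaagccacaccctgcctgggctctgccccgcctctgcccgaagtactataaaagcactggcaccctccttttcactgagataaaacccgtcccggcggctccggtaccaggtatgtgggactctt

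Stat2 held 1 response element core, on the reverse strand, from 222 to 213 bases before the start. The Irf2 window held a response element core from 241 to 232 bases before the start, a gamma-activated site from 224 to 216 bases before it and a kappaB match from 17 to 8 bases before it. The first Irf1 window held a gamma-activated site from 90 to 82 bases before the start and a kappaB match from 13 to 4 bases before it. In the Irf7 window shown, in the second Irf1 window and in those of Irf9, Jak1 and Irf3, none of the 3 motifs was found. This says only that these letters are not in these windows. Ifnar2 had a gamma-activated site from 214 to 206 bases before its start, and Ifnar1 had one across its start. Over all 32851 RefSeq windows of the same length, 3.44% held the response element core, 8.30% the gamma-activated site and 4.51% the kappaB consensus. No motif overlapped another in the windows of the 9 genes, and a match is a description of the sequence, not evidence of binding.

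**Figure D1:**
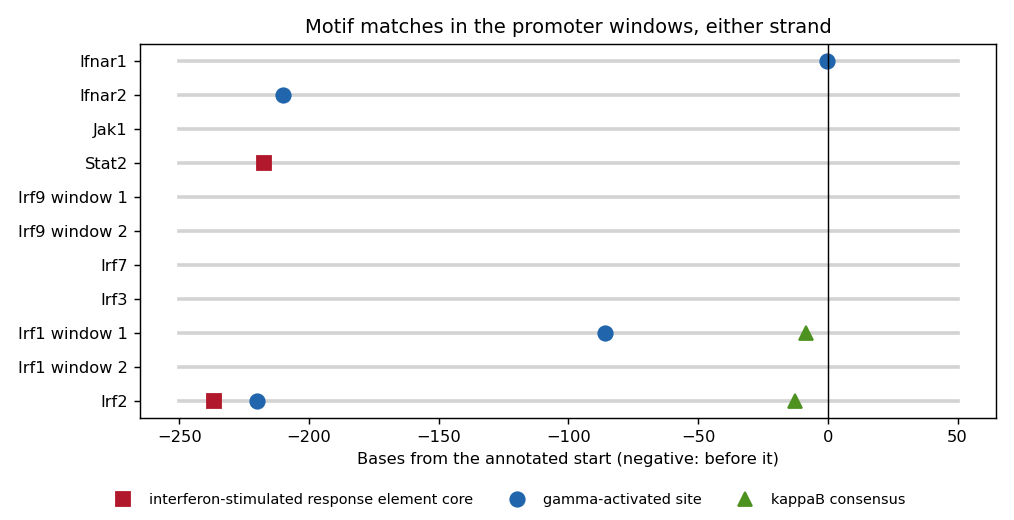
Positions of the 3 motifs in the 11 promoter windows of the 9 genes, in bases from the annotated start (horizontal axis), with 1 row per window and 1 marker per match on either strand. Response element cores lie in the Irf2 and Stat2 windows, and the second Irf1 window and the windows of Irf7, Irf9, Jak1 and Irf3 are empty.

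Against wild type, the KO cells had more transcript of 3 of the 9 genes, Irf7, Stat2 and Irf9, and less of 2, Ifnar2 and Jak1, while Ifnar1, Irf1, Irf2 and Irf3 did not pass the test. Irf7 was 2.75-fold, Stat2 2.15-fold and Irf9 1.73-fold higher, whereas Ifnar2 was 1.36-fold and Jak1 1.21-fold lower. The 3 raised genes did not move the opposite way in rescue against KO: Irf7 was a further 1.63-fold higher, and Stat2 and Irf9 had higher means that did not pass. In rescue against wild type, Irf7 was 4.47-fold, Stat2 2.62-fold and Irf9 2.08-fold higher. Among all 12339 genes, 23.2% were called higher, 23.5% lower and 46.8% in either direction in KO against wild type (edgeR quasi-likelihood, adjusted p under 0.05). Beside this stand 3 and 2 of the 9 (3 and 2 at an unadjusted p under 0.05, and 3 and 1 by DESeq2). That share is near the background and is no result about the group as a whole. In rescue against KO, 8.35% of all genes were called higher, 5.88% lower and 14.2% in either direction, beside 1 and 0 of the 9 (3 and 0 at an unadjusted p under 0.05, and 1 and 0 by DESeq2). In rescue against wild type, 10.2% were called higher, 12.0% lower and 22.2% in either direction, beside 3 and 0 of the 9 (3 and 0 at an unadjusted p under 0.05, and 3 and 0 by DESeq2). All these shares over all genes are those of edgeR at the adjusted threshold. The counts in brackets, at an unadjusted p or by DESeq2, have no such share beside them and are not to be read against it. The median log2 fold change of the 9 genes was 0.02 in KO against wild type, 0.16 in rescue against KO and 0.13 in rescue against wild type, beside 0.01, -0.00 and 0.01 over all genes. The 3 comparisons share libraries in pairs, so their values are set side by side and not as independent evidence. In these bulk libraries, fewer cells that express a gene and less RNA per cell cannot be told apart.

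**Figure D2:**
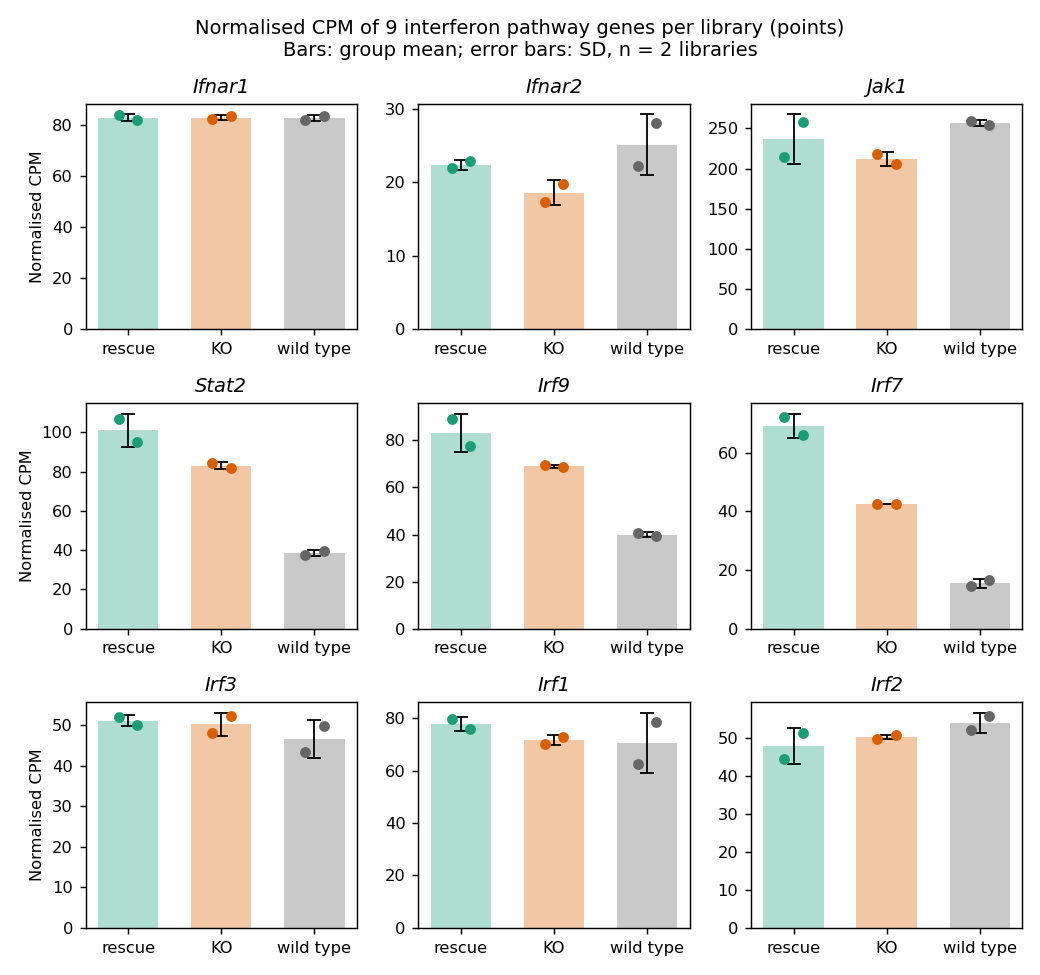
Normalised CPM (vertical axis) of each of the 9 genes in rescue, KO and wild type; points are libraries, bars are group means and error bars are the SD of 2 libraries. Irf7 stands at 66.1 to 72.0 in rescue, 42.4 to 42.5 in KO and 14.4 to 16.4 in wild type, and Ifnar1 lies between 81.8 and 83.6 in all 6 libraries.

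No ligand was measurable. The list held 21 mouse interferon genes, among them Ifnb1, the Ifna genes, Ifng and the lambda genes Ifnl2 and Ifnl3. Of these, 18 had 0 counts in all 6 libraries, and Ifnk, Ifne and Ifnz had 4, 3 and 4 counts in total. A count of 0 allows up to 3 counts, which is 0.261 to 0.394 CPM depending on the library and covers counting error only. For the 18 genes at 0, poly(A) RNA of the cells therefore showed no transcript above that limit in any group. Ifnk, Ifne and Ifnz had at most 2, 1 and 2 counts in 1 library, and a limit for a count of 0 does not cover these. None of the 21 could be tested.

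Ifnar1 (ENSMUSG00000022967, GRCm38 chromosome 16, 91485238 to 91507441, plus strand, 11 exonic blocks) encodes the chain that binds TYK2. It had 83.6 and 81.8 normalised CPM in rescue, 82.1 and 83.3 in KO, and 81.8 and 83.3 in wild type. The groups overlapped in every comparison, and the 6 libraries lay in 1 narrow band. The log2 fold change was 0.002 in KO against wild type (95% interval -0.18 to 0.18, edgeR adjusted p = 0.984), 0.000 in rescue against KO (-0.18 to 0.18, adjusted p = 1.000) and 0.002 in rescue against wild type (-0.18 to 0.18, adjusted p = 0.987). These intervals leave out a change of 1.5-fold in either direction.

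Ifnar2 (ENSMUSG00000022971, chromosome 16, 91372783 to 91405589, plus strand, 9 exonic blocks) encodes the chain that binds JAK1 and STAT2. It had 21.9 and 22.9 normalised CPM in rescue, 17.4 and 19.8 in KO, and 22.2 and 28.0 in wild type. Both KO libraries were below both wild-type and both rescue libraries, and the second wild-type library was the highest of the 6. Ifnar2 fell in KO against wild type, with a log2 fold change of -0.45 (SE 0.14, 95% interval -0.76 to -0.14, edgeR adjusted p = 0.023). The call rested on single libraries, since it was -0.26 without the second wild-type library (adjusted p = 0.265) and -0.36 without the first KO library (adjusted p = 0.158). The change was 0.28 in rescue against KO (95% interval -0.05 to 0.60, adjusted p = 0.231), and in rescue against wild type it was -0.17 (-0.49 to 0.14, adjusted p = 0.436). DESeq2 did not call the KO difference either (-0.45, adjusted p = 0.074).

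The receptor genes lie in a cluster on chromosome 16 in the order Ifnar2, Il10rb, Ifnar1, Ifngr2, over 192387 bases, with 574, 59403 and 39630 bases between neighbours. Il10rb and Ifngr2, named because of their position and after their values were seen, encode the second chains of the receptors for lambda interferons and interferon gamma. Ifngr2 had 64.2 and 60.6 normalised CPM in rescue, 79.2 and 93.9 in KO, and 97.3 and 102.8 in wild type. Ifngr2 was lowest in rescue: its log2 fold change was -0.47 in rescue against KO (edgeR adjusted p = 0.014) and -0.68 in rescue against wild type (adjusted p = 7.0e-04), while -0.21 in KO against wild type did not pass (adjusted p = 0.093). Il10rb passed in none of the 3 comparisons, with log2 fold changes of 0.13, -0.26 and -0.13 in KO against wild type, rescue against KO and rescue against wild type. Ifnar2 shares 315 exonic bases, 9.5% of its length, with the read-through gene model Gm21970 on the same strand, to which the authors' files assign 0 counts in all 6 libraries.

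Jak1 (ENSMUSG00000028530, chromosome 4, 101152367 to 101265282, minus strand, 28 exonic blocks) encodes the kinase that IFNAR2 carries. It had 214.2 and 258.2 normalised CPM in rescue, 218.1 and 205.9 in KO, and 259.3 and 254.0 in wild type. Both KO libraries were below both wild-type libraries, and the rescue libraries were split, with 1 near the KO level and 1 near the wild-type level. Jak1 fell in KO against wild type by 0.28 on the log2 scale (SE 0.10, edgeR adjusted p = 0.034). Leaving out any 1 of the 4 libraries compared ended the call, with adjusted p between 0.075 and 0.179, although the log2 fold change stayed between -0.33 and -0.24. Between rescue and KO the log2 fold change was 0.16 (95% interval -0.06 to 0.37, adjusted p = 0.307), and it was 0.28 without the first rescue library (adjusted p = 0.029). In rescue against wild type it was -0.12 (-0.33 to 0.09, adjusted p = 0.413), and -0.26 without the second rescue library (adjusted p = 0.045).

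Stat2 (ENSMUSG00000040033, chromosome 10, 128270576 to 128292849, plus strand, 24 exonic blocks) encodes the STAT that is particular to type I and type III interferon signalling. It had 107.0 and 95.1 normalised CPM in rescue, 84.3 and 81.7 in KO, and 37.5 and 39.6 in wild type. The 3 groups did not overlap, with rescue highest and wild type lowest, and the rescue libraries lay further apart than those of the other groups. Stat2 rose in KO against wild type, with a log2 fold change of 1.11 (SE 0.10, 95% interval 0.90 to 1.31, edgeR adjusted p = 7.3e-06), and in rescue against wild type, with 1.39 (SE 0.10, 95% interval 1.18 to 1.60, adjusted p = 1.9e-06). The difference between rescue and KO, 0.28 (95% interval 0.09 to 0.48), did not pass the threshold (adjusted p = 0.056). It passed without the second rescue library (0.37, adjusted p = 0.030) and with a minimum count of 50 (0.29, adjusted p = 0.047).

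Irf9 (ENSMUSG00000002325, chromosome 14, 55603571 to 55610030, plus strand, 6 exonic blocks) encodes the DNA-binding partner of the STATs in ISGF3. It had 89.0 and 77.6 normalised CPM in rescue, 69.5 and 68.7 in KO, and 40.9 and 39.2 in wild type. As for Stat2, the groups did not overlap and ran in the same order. Irf9 rose in KO against wild type by a log2 fold change of 0.79 (SE 0.10, 95% interval 0.58 to 1.00, edgeR adjusted p = 7.6e-05) and in rescue against wild type by 1.06 (SE 0.10, 95% interval 0.85 to 1.27, adjusted p = 1.9e-05). In rescue against KO it was 0.27 (95% interval 0.07 to 0.47, adjusted p = 0.072), which passed only without the second rescue library (0.37, adjusted p = 0.034). Irf9 shares 123 exonic bases, 2.3% of its length, with Rnf31 on the same strand, which had 401 to 665 counts per library.

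Irf7 (ENSMUSG00000025498, chromosome 7, 141262706 to 141266481, minus strand, 7 exonic blocks), often called the master regulator of the interferon alpha genes, changed most of the 9. It had 72.0 and 66.1 normalised CPM in rescue (568 and 496 counts), 42.5 and 42.4 in KO (509 and 370 counts), and 14.4 and 16.4 in wild type (121 and 168 counts). Both KO libraries lay far above both wild-type libraries, and both rescue libraries lay above both KO libraries. The log2 fold change was 1.46 in KO against wild type (SE 0.11, 95% interval 1.21 to 1.71, edgeR adjusted p = 3.3e-06), 0.70 in rescue against KO (SE 0.10, 95% interval 0.49 to 0.92, adjusted p = 0.002) and 2.16 in rescue against wild type (SE 0.11, 95% interval 1.92 to 2.40, adjusted p = 2.1e-07). Irf7 was the only one of the 9 genes called in all 3 comparisons, and it kept each call under all 13 alternatives, the 6 that leave out 1 library included. Its exons share 45 bases, 1.5% of its length, with Phrf1 on the opposite strand, which had 1143 to 1978 counts per library; without a stated strand setting, reads there cannot be assigned.

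Irf3 (ENSMUSG00000003184, chromosome 7, 44997648 to 45002848, plus strand, 7 exonic blocks) encodes the relative of IRF7 that most cells hold ready before infection. It had 52.0 and 50.1 normalised CPM in rescue, 48.1 and 52.1 in KO, and 43.2 and 49.8 in wild type. The groups overlapped in both comparisons with KO, and both rescue libraries lay just above the higher wild-type library. The log2 fold change was 0.10 in KO against wild type (95% interval -0.12 to 0.32, edgeR adjusted p = 0.432), 0.03 in rescue against KO (-0.20 to 0.25, adjusted p = 0.881) and 0.13 in rescue against wild type (-0.10 to 0.36, adjusted p = 0.405). Irf3 shares 88 exonic bases, 2.8% of its length, with Bcl2l12 on the opposite strand.

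Irf1 (ENSMUSG00000018899, chromosome 11, 53770014 to 53778374, plus strand, 12 exonic blocks) had 79.6 and 75.8 normalised CPM in rescue, 70.3 and 72.9 in KO, and 62.5 and 78.7 in wild type. Both rescue libraries were above both KO libraries, but the 2 wild-type libraries spanned the whole range of KO and reached into that of rescue. The log2 fold change was 0.02 in KO against wild type (95% interval -0.22 to 0.25, edgeR adjusted p = 0.915), 0.12 in rescue against KO (-0.12 to 0.36, adjusted p = 0.497) and 0.14 in rescue against wild type (-0.11 to 0.38, adjusted p = 0.417). Irf2 (ENSMUSG00000031627, chromosome 8, 46739745 to 46847458, plus strand, 9 exonic blocks) had 44.6 and 51.3 normalised CPM in rescue, 49.9 and 50.8 in KO, and 52.1 and 55.9 in wild type. Its wild-type libraries were the 2 highest, yet the log2 fold changes of -0.10 in KO against wild type (adjusted p = 0.408), -0.07 in rescue against KO (adjusted p = 0.680) and -0.17 in rescue against wild type (95% interval -0.39 to 0.05, adjusted p = 0.246) did not pass. For Irf1, Irf2 and Irf3 alike, these intervals leave out a change of 1.5-fold in either direction.

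**Figure D3:**
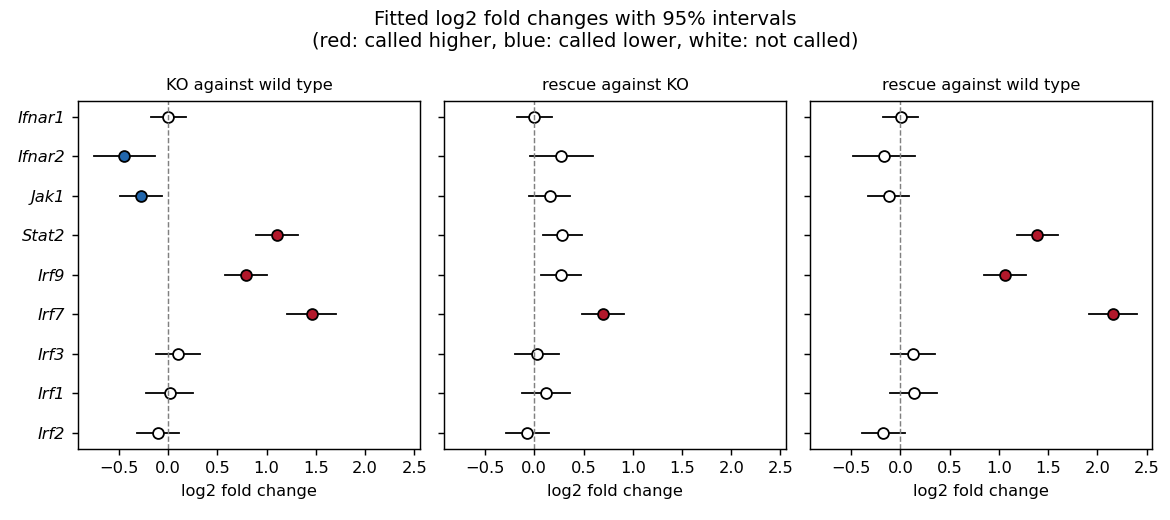
Fitted log2 fold changes (horizontal axis) of the 9 genes in the 3 comparisons, with 95% intervals; red marks genes called higher, blue genes called lower and white genes not called. Irf7, Stat2 and Irf9 lie at 0.79 to 1.46 in KO against wild type and at 1.06 to 2.16 in rescue against wild type, and Ifnar1 lies at 0.

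Counting only whether the libraries of a pair of groups overlap, 3 of the 9 genes lay entirely above and 3 entirely below wild type in KO, where 39.1% and 37.6% of all tested genes did so. In rescue against KO, 5 lay entirely above and 0 entirely below, beside 29.3% and 30.1% of all genes, and the 5 were Irf7, Stat2, Irf9, Ifnar2 and Irf1. In rescue against wild type, 4 lay above and 1 below, beside 31.2% and 30.4%. With 2 libraries per group such separation is common, and it was not used as a test.

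Levels of different genes were compared per length, with the deposited RPKM (read counts scaled to library size and gene length). Jak1 was highest of the 9 in every group, at a mean of 32.6 ± 3.9 RPKM in rescue, 30.6 ± 1.1 in KO and 34.0 ± 0.10 in wild type (SD, n = 2 each). Irf7 ranked 3 of 9 in rescue (22.8 ± 1.7 RPKM), 7 in KO (14.7 ± 0.048) and 9 in wild type (4.88 ± 0.52). Stat2 ranked 2 in rescue (22.9 ± 2.2 RPKM), 3 in KO (19.7 ± 0.33) and 6 in wild type (8.38 ± 0.41). The place of Irf7 in the order thus differed more between groups than that of Jak1, which did not move. With normalised CPM per kilobase all 9 genes kept these ranks in each group, which was nearly fixed beforehand. Both measures divide the same count by the same length and by a factor of the library.

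In the other places, Irf2 followed Jak1 in KO at 21.2 ± 0.38 RPKM and in wild type at 20.8 ± 1.3. Ifnar2 was lowest in rescue (6.71 ± 0.11 RPKM) and in KO (5.84 ± 0.57). In wild type, Stat2, Ifnar2 (7.22 ± 1.3 RPKM) and Irf9 (7.10 ± 0.13) followed each other with overlapping libraries, and so did Irf1, Irf3 and Ifnar1 from 17.0 to 13.4 RPKM. In KO the libraries of neighbours overlapped only for Ifnar1 (14.7 RPKM) and Irf7. In rescue they overlapped for Stat2 and Irf7, for Irf1 (19.5 RPKM) and Irf2 (19.2 RPKM), and along Irf3 (16.0 RPKM), Irf9 (15.4 RPKM) and Ifnar1 (14.0 RPKM).

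**Figure D4:**
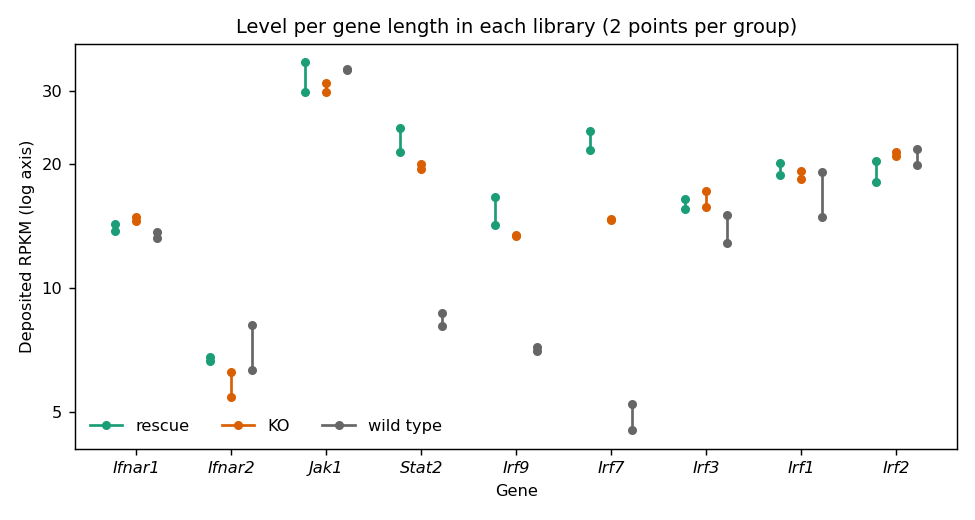
Deposited RPKM (vertical log axis) of the 9 genes in each library, with 2 points per group for rescue, KO and wild type. Jak1 is highest throughout at 29.8 to 35.3 RPKM, and Irf7 lies at 21.6 to 24.0 RPKM in rescue, 14.7 in KO and 4.51 to 5.24 in wild type.

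Ratios within a library do not depend on how libraries were scaled. The ratio of Irf7 to Irf3 RPKM was 1.46 and 1.39 in rescue, 0.933 and 0.858 in KO, and 0.351 and 0.348 in wild type. Irf7 was thus above Irf3 per length in rescue, somewhat below it in KO and far below it in wild type, with no overlap between groups. The ratio of Irf7 to Irf9 was 1.44 and 1.52 in rescue, 1.09 and 1.10 in KO, and 0.627 and 0.747 in wild type.

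Irf9 and Stat2, both parts of ISGF3, moved less unequally. Their RPKM ratio was 0.679 and 0.667 in rescue, 0.673 and 0.686 in KO, and 0.889 and 0.808 in wild type. Rescue and KO overlapped, and both lay below wild type, so Stat2 was higher relative to Irf9 in both. The ratio of the receptor chains, Ifnar2 to Ifnar1, was 0.464 and 0.495 in rescue, 0.374 and 0.420 in KO, and 0.479 and 0.595 in wild type, with KO below the other groups and rescue overlapping wild type. Irf1 to Irf2 gave 1.12 and 0.923 in rescue, 0.880 and 0.897 in KO, and 0.749 and 0.879 in wild type.

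Of the other interferon receptors, JAKs and STATs, 12 of 13 listed genes were tested, and 2 were called higher and 4 lower in KO against wild type. The median log2 fold change was -0.20, beside 0.01 over all genes. Beside these counts, and those of the lists below, stand 23.2% higher and 23.5% lower over all genes in KO against wild type. The shares were 8.35% and 5.88% in rescue against KO, and 10.2% and 12.0% in rescue against wild type. Jak2, the kinase of the interferon gamma receptor, had 37.8 and 45.8 normalised CPM in rescue, 41.8 and 43.7 in KO, and 87.0 and 96.6 in wild type. Jak2 fell by 1.11 on the log2 scale in KO against wild type (adjusted p = 1.4e-05) and by 1.14 in rescue against wild type (adjusted p = 2.5e-05), with -0.03 between rescue and KO (adjusted p = 0.882).

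Ifngr1, the ligand-binding chain for interferon gamma, also fell in KO against wild type (-0.63, edgeR adjusted p = 1.1e-04) and was -0.41 in rescue against wild type (adjusted p = 0.005). Stat5a, which cytokine receptors use, rose in KO against wild type (0.74, adjusted p = 0.002) and was -0.52 in rescue against KO (adjusted p = 0.043). Tyk2, the kinase carried by IFNAR1, passed in none of the comparisons (-0.24, 0.22 and -0.02 in KO against wild type, rescue against KO and rescue against wild type; adjusted p = 0.129, 0.255 and 0.936) and was named after its values were seen. Of the 12, 0 were called higher and 2 lower in rescue against KO (median 0.01), and in rescue against wild type 1 and 5 (median -0.13). The 4 calls lower in KO against wild type became 2 without the first wild-type or the first KO library and with no scaling factor, and the 5 lower in rescue against wild type became 3 without either wild-type library. The 2 calls lower in rescue against KO became 0 without the second KO library. They became 1 with DESeq2, with the replicate block, with only the groups compared, and without either wild-type or the second rescue library, and the 0 higher became 2 without the first rescue library.

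Of 7 other IRF genes and IRF2 partners, 3 had enough counts to be tested. Among these 3, 1 was called higher and 0 lower in KO against wild type, and 0 in each direction in the other comparisons (median -0.20, 0.05 and -0.09 in KO against wild type, rescue against KO and rescue against wild type). Irf2bp1, a corepressor partner of IRF2, was the gene called, with a log2 fold change of 0.53 (edgeR adjusted p = 0.002). The 0 called lower in KO against wild type became 3 with no filter, 2 with only the groups compared or without the first rescue library, and 1 without the second wild-type library.

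Of 15 brakes on interferon receptor signalling, all were tested, and 3 were called higher and 3 lower in KO against wild type (median -0.16). Over all genes the shares were 23.2% and 23.5%, so these counts are near the background and are no result about the list. Single genes of the list were called in both directions. Usp18, the protease that occupies IFNAR2 and blocks JAK1, had 53.4 and 48.5 normalised CPM in rescue, 35.2 and 27.9 in KO, and 5.22 and 6.06 in wild type. Usp18 rose by 2.48 on the log2 scale in KO against wild type (SE 0.17, edgeR adjusted p = 1.3e-06), by 0.68 in rescue against KO (adjusted p = 0.007) and by 3.16 in rescue against wild type (adjusted p = 2.1e-07). Isg15, the ubiquitin-like protein that in human cells stabilises USP18, rose likewise, by 1.92 (adjusted p = 8.2e-06), 0.86 (adjusted p = 0.004) and 2.78 (adjusted p = 5.7e-07) in KO against wild type, rescue against KO and rescue against wild type. Both are also targets of ISGF3 and stand in the list of its targets.

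Socs3, the inhibitor best known for acting on STAT3 signalling, went the other way, with 38.7 and 36.0 normalised CPM in rescue, 26.7 and 29.6 in KO, and 60.0 and 56.4 in wild type. Socs3 fell by 1.05 on the log2 scale in KO against wild type (edgeR adjusted p = 1.5e-05), was 0.41 in rescue against KO (adjusted p = 0.027) and fell by 0.64 in rescue against wild type (adjusted p = 0.001). Sh2b3, an adaptor that restrains JAK2, fell in KO against wild type (-0.42, adjusted p = 0.009). Of the 15, 3 were called higher and 0 lower in rescue against KO (median 0.15), and 2 and 1 in rescue against wild type (median -0.10). The 3 in rescue against KO became 0 without the second KO library and 5 without the first rescue library, and the 3 lower in KO against wild type became 1 without the first wild-type or the second KO library. The 0 lower in rescue against KO became 1 with no scaling factor or without the first rescue library, and the 1 lower in rescue against wild type became 2 without either rescue library.

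Of 20 activators of IRF3 and IRF7, 19 were tested, and 8 were called higher and 2 lower in KO against wild type (median 0.23). Over all genes 23.2% were called higher and 23.5% lower. Cgas, the cytosolic DNA sensor upstream of STING, averaged 14.9, 17.3 and 6.51 normalised CPM in rescue, KO and wild type, with a log2 fold change of 1.42 in KO against wild type (edgeR adjusted p = 7.3e-05) and -0.22 in rescue against KO (adjusted p = 0.377). Tlr3, the endosomal sensor of double-stranded RNA, averaged 40.0, 39.2 and 15.1, with 1.38 (adjusted p = 1.1e-04) and 0.03 (adjusted p = 0.933). Both were thus raised in KO against wild type without a called difference between rescue and KO.

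Dhx58, the RIG-I-like regulator LGP2, averaged 18.8, 12.0 and 4.20 normalised CPM in rescue, KO and wild type, with 1.52 in KO against wild type (edgeR adjusted p = 1.1e-04) and 0.64 in rescue against KO (adjusted p = 0.026). Myd88, the adaptor that recruits IRAK4 to Toll-like receptors, had 17.0 and 14.7 normalised CPM in rescue, 23.1 and 23.4 in KO, and 10.8 and 11.4 in wild type. Its 3 groups did not overlap and KO was highest: Myd88 rose by 1.06 in KO against wild type (adjusted p = 1.2e-04), fell by 0.55 in rescue against KO (adjusted p = 0.022) and rose by 0.51 in rescue against wild type (adjusted p = 0.031). Of the 19, 3 were called higher and 1 lower in rescue against KO (median 0.03), and 7 and 1 in rescue against wild type (median 0.04). Myd88 was the 1 called lower in rescue against KO, and that count became 0 with DESeq2 and without either KO or the second rescue library, and 2 without the first rescue library. The 2 called lower in KO against wild type became 1 with DESeq2, with no scaling factor, and without either wild-type or the second KO library. The 1 lower in rescue against wild type became 0 with DESeq2, with no scaling factor, with the replicate block, and without either wild-type or the first rescue library. The 3 called higher in rescue against KO became 0 without the second KO library and 1 with DESeq2 or without the first KO or the first rescue library.

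All 14 tested genes of 15 listed targets of ISGF3 were called higher in KO against wild type, with a median log2 fold change of 1.58, and all 14 in rescue against wild type, with a median of 2.35. Between rescue and KO 11 were called higher and 0 lower (median 0.71), and these became 3 without the second KO library. Mx1, with 22 counts in total, was not tested. Oas3, which makes the second messenger that activates RNase L, had 165.7 and 179.3 normalised CPM in rescue, 94.9 and 80.9 in KO, and 23.5 and 23.0 in wild type. The groups did not overlap, and the log2 fold change was 1.92 in KO against wild type (edgeR adjusted p = 4.5e-07), 0.97 in rescue against KO (adjusted p = 7.5e-04) and 2.89 in rescue against wild type (adjusted p = 2.6e-08). Bst2, the tethering factor that holds budding viruses at the membrane, averaged 287.6, 204.0 and 70.8 normalised CPM in rescue, KO and wild type. Xaf1, an interferon-induced partner of XIAP, averaged 166.0, 98.9 and 32.1. Bst2 and Xaf1 were called higher in all 3 comparisons, Bst2 by 1.53, 0.50 and 2.02 on the log2 scale and Xaf1 by 1.62, 0.75 and 2.37 in KO against wild type, rescue against KO and rescue against wild type. These targets overlap with genes already known from these data to be raised, so their counts are a description and not independent support.

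Of 14 listed targets of IRF1 and interferon gamma signalling, 10 were tested, and 8 were called higher and 0 lower in KO against wild type (median 1.52), 4 and 0 in rescue against KO (median 0.26; 1 without the second KO library) and 8 and 0 in rescue against wild type (median 1.83). Nlrc5, which switches on MHC class I genes, had 111.3 and 117.2 normalised CPM in rescue, 99.9 and 89.2 in KO, and 27.2 and 25.9 in wild type. Nlrc5 rose by 1.84 on the log2 scale in KO against wild type (edgeR adjusted p = 3.6e-07), while 0.27 in rescue against KO did not pass (adjusted p = 0.062). Psmb8, a subunit of the immunoproteasome, rose by 2.22 (adjusted p = 3.7e-06) in KO against wild type and by 0.73 (adjusted p = 0.006) in rescue against KO, and Tap1, the peptide transporter, by 1.69 (adjusted p = 1.2e-05) and 0.91 (adjusted p = 0.003). Irgm1, an immunity-related GTPase, rose by 1.30 in KO against wild type (adjusted p = 4.4e-05), with 0.02 in rescue against KO (adjusted p = 0.942). The 2 tested genes not called in any comparison were Cxcl10 and Socs1, named after their values were seen; Cxcl10, a chemokine, had 7.99 and 8.12 normalised CPM in rescue, 7.52 and 6.19 in KO, and 4.51 and 7.62 in wild type. The transcript of Irf1 itself did not pass in any comparison, as given above.

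Where edgeR called 0 tested genes of a list in a direction, DESeq2 called 0 as well. At an unadjusted p under 0.05 the count was also 0, apart from 1 gene each for the receptors higher in rescue against KO (Ifngr1), the brakes lower in rescue against KO (Pias3) and the IRF2 partners higher in rescue against wild type (Irf2bp1). Pias3 was named after its values were seen.

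The genes with the most similar profiles over the 6 libraries were found by the root mean square difference between centred log2 CPM profiles, among 9905 tested genes with at least 5 CPM, as a description with no test. For Irf7 they were Nox4 (0.06 on the log2 scale) and Xaf1 (0.10), and for Stat2 they were Epsti1 (0.05) and Zfp518b (0.05). For Irf9 they were Dtx3l (0.05) and H2-T24 (0.08). These differences are small beside the spread of the genes' own profiles, which was 0.90 for Irf7, 0.60 for Stat2 and 0.45 for Irf9. The neighbours of Ifnar2, Galnt11 and Rrad, were at 0.06 each beside a spread of 0.21. Jak1 was nearest to Tfe3 (0.02) and Sav1 (0.03), Irf1 to Nudt14 (0.04) and Srek1ip1 (0.04), Irf2 to Acaa2 (0.02) and Zfp445 (0.03), Irf3 to Rnpc3 (0.02) and Nelfa (0.02), and Ifnar1 to Tkt (0.012) and Gnai2 (0.019). The spreads of these profiles were 0.14 for Jak1, 0.12 for Irf1, 0.10 for Irf2, 0.09 for Irf3 and 0.013 for Ifnar1. The neighbours of Ifnar1 thus differed from it by about its own spread or more, and are no close match. With Pearson's r in place of the difference, 5 of the 18 neighbours were the same.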

How the data were processed

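The 6 libraries were grouped by their titles. Per the submitters' processing notes, bcl2fastq, STAR 2.0.4b, Subread, featureCounts 1.45 and the build GRCm38 were used; for strand and annotation release the setting is not given in the sources used here. The deposited files hold, per gene, the read count with its CPM and RPKM; the deposited CPM scales the count to the file's total, and the deposited RPKM divides that CPM by the listed length. Symbols came from GENCODE M21 for 40254 identifiers.

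Counts of genes kept by filterByExpr (minimum count 10, minimum total 15) were scaled by TMM and tested by quasi-likelihood in edgeR 4.0.16 (R 4.3.3). The fit used all 6 libraries and a mean for each group, leaving 3 residual degrees of freedom. Benjamini-Hochberg adjustment ran over all 12339 genes, and an adjusted p under 0.05 was called. The standard error is the log2 fold change over the square root of F. Profiles used log2 CPM with a prior count of 2. The test was tried on simulated counts first. Alternatives were RLE scaling, no scaling factor, no filter, a minimum count of 50, DESeq2 1.42.0, a replicate block, only the groups compared, and leaving out each library.

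The members and lists were chosen with earlier results of these data known. The named genes are the 9 genes, Irak4, 2 neighbours in profile per gene and, per list, at most 4 called genes with the smallest adjusted p in KO against wild type and a mean of at least 5 CPM; others are marked where named, and some genes of the lists are not reported here. Totals limit the precision of low counts, and the floor of 3 counts covers counting error only.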

Additional observations from a re-analysis of the deposited data

How the results depend on the processing

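Of 351 results for the 9 genes (27 log2 fold changes under 13 alternatives), 336 kept their side of the threshold, 10 lost a call and 5 gained one. Where either fit gave a call, 0 results changed sign. Some changes that neither fit called did change sign. Irf1 in KO against wild type, for example, was 0.016 in the main fit and ran from -0.138 to 0.197 under the alternatives. Irf7, Stat2 and Irf9 kept their calls in KO and in rescue against wild type under all 13. Ifnar2 in KO against wild type lost its call with no scaling factor, with DESeq2, and without the second wild-type or first KO library; Jak1 lost its call with no scaling factor, with the replicate block and without any 1 of the 4 libraries. The 2 genes of the 9 called lower in KO against wild type became 0 with no scaling factor, 1 with DESeq2 and 1 with the replicate block; the 1 called higher in rescue against KO became 2 with a minimum count of 50. With no scaling factor the median log2 fold change of all genes moved to 0.14 in KO against wild type, beside 0.01, and relative to it Ifnar2 at -0.32 and Jak1 at -0.15 stayed below. Otherwise the cause was not tested.

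Over all genes, those called higher in rescue against KO (1030) became 667 with only the groups compared, and those called lower (726) became 1185 with no scaling factor, 378 with DESeq2, 429 with the replicate block and 377 with only the groups compared. Those called higher in rescue against wild type (1263) became 751 with DESeq2. A count is said to have become another value only where it moved by more than 1.5-fold or from 0, here and for the lists. Smaller moves are left out, so a count without a stated change may still depend on the settings. In KO against wild type, the number of all genes called higher rose with no scaling factor and fell with DESeq2. The number called lower fell with both, and each of these moves was below the cut. Leaving out each library gave 1688 to 3297 higher and 2005 to 3414 lower in KO against wild type, 139 to 1849 and 64 to 1596 in rescue against KO, and 417 to 1699 and 691 to 1953 in rescue against wild type. The lowest counts in rescue against KO came without the second KO library and the highest without the first rescue library; the lowest in the other comparisons came without the first wild-type library. For the 9 genes it gave 3 to 3 higher and 0 to 2 lower in KO against wild type, 1 to 3 and 0 to 0 in rescue against KO, and 3 to 3 and 0 to 1 in rescue against wild type.

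Same-numbered libraries did not deviate together (correlations of 0.04 for KO and wild type, -0.19 for rescue and KO, and -0.15 for rescue and wild type). The labels state no block, so the replicate block paired libraries by number alone, and whether these shared a batch is not known. Under this block Jak1 in KO against wild type was -0.28 with an edgeR adjusted p of 0.059. The counts of the interferon ligands were too low to test, and whether greater depth would have shown them was not tested.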
